A study of Rattus norvegicus with 372 samples.

Results

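Transcripts of the NRF2 antioxidant programme were followed in cultured rat hepatocytes that had spent 24 h with 1 of 14 chemicals, each given at a low and a high concentration. The set consisted of 9 named genes, Nqo1, Hmox1, Gclc, Gclm, Srxn1, Txnrd1, Gsr, Slc7a11 and Osgin1, found by symbol in the tables of the TempO-Seq whole transcriptome (WT) and surrogate (ST) assays. By symbol, 8 of the 9 were among 20946 genes of the WT table and 9 among 2604 genes of the ST table. Genes averaging under 10 counts over the wells of an assay were not tested, which left 7 of 10191 genes in WT and 8 of 1760 in ST as members. Slc7a11 missed the filter with a mean of 9.47 counts in WT and 9.49 in ST. Srxn1 has no WT column of its own symbol and is therefore given from the ST assay.

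NRF2, encoded by Nfe2l2, is a transcription factor that KEAP1 holds in the cytoplasm and marks for degradation until reactive chemicals or oxidants modify cysteines of KEAP1. Freed NRF2 enters the nucleus, pairs with a small MAF protein and binds antioxidant response elements of genes for glutathione synthesis, thioredoxin and peroxiredoxin recycling, quinone reduction and heme breakdown. In liver this programme is known for its part in the handling of electrophilic drug metabolites such as the quinone imine of acetaminophen.

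Primary hepatocytes of male Wistar rats were kept in collagen sandwich in medium with dexamethasone and EGF, and 1 rat supplied each of the 2 batches. Each chemical was dissolved in medium with 0.5% DMSO, and each of the 28 treatments had 3 wells per batch, which are technical replicates of 1 rat. Vehicle wells, with 0.5% DMSO and no chemical, numbered 3 in batch 1 and 6 in batch 2, and so did wells of culture medium without DMSO. The chemicals and their low and high concentrations, in µM, were acetaminophen (400 and 10000), caffeine (400 and 10000), chloramphenicol (18 and 450), diclofenac (16 and 400), doxorubicin (0.08 and 2), indomethacin (12 and 300), isoniazid (400 and 10000), ketoconazole (0.6 and 15), naproxen (80 and 2000), ranitidine (160 and 4000), simvastatin (2.4 and 60), sulfasalazine (4 and 100), valproic acid, labelled Valproic (400 and 10000), and WY14643 (8 and 200). Libraries were also made and sequenced separately for each batch. Rat, library preparation and sequencing run therefore cannot be told apart between batches. With 1 rat per batch, the p-values below measure mostly the spread between wells, and calls lost with wells summed per rat are named for each member.

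A read in TempO-Seq stands for a pair of detector oligos ligated on the transcript, so its count says nothing of the rest of the gene. The WT libraries held between 2.29e+06 and 8.98e+06 counts and the ST libraries between 558190 and 2.21e+06. In batch 1 all vehicle wells were on one of the 2 plates, and acetaminophen, chloramphenicol, indomethacin, ketoconazole, sulfasalazine and WY14643 were on the other, so that plate and treatment cannot be told apart there. The labelled cell type was checked with 7 hepatocyte markers, whose summed level was 36876 to 44002 CPM (counts scaled to a library total of 1e+06) in vehicle wells and 6892 to 52509 in treated wells. Markers of Kupffer cells and leukocytes summed to 53.0 to 76.8 CPM in vehicle wells, those of stellate cells to 35.0 to 168 CPM and those of bile duct cells to 37.7 to 50.6 CPM. Of 5 endothelial markers, Stab2, Lyve1 and Vwf were under 1 CPM in every vehicle well.

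Members were called in both directions. A call means an adjusted p under 0.05 (edgeR quasi-likelihood test with Benjamini-Hochberg adjustment over all genes of a comparison), and L2FC is the log2 fold change against vehicle with both batches in the fit. Over 196 pairs of a member and a treatment in WT, 34 were higher than vehicle and 40 lower. Over all genes tested, 15.2% of pairs were higher and 15.0% lower. At the high concentrations 31 of 98 pairs were higher and 32 lower, beside 25.4% and 25.5% of all genes. At the low concentrations 3 of 98 were higher and 8 lower, beside 4.91% and 4.50%. The median L2FC of the members was 0.08 at the high and 0.02 at the low concentrations, and the median over all tested genes lay within 0.05 of 0 in every treatment.

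The genes differed in their usual direction. Hmox1 was higher in 9 of 28 treatments and lower in 2, Txnrd1 higher in 5 and lower in 1, and Srxn1, in ST, higher in 10 and lower in 4. Nqo1 was higher in 9 and lower in 7, Gsr higher in 4 and lower in 3, and Gclm higher in 5 and lower in 5. Gclc and Osgin1 were each higher in 1 treatment and lower in 11. Over the 8 members with a test, 13 of the 15 treatments with at least 2 calls had members in both directions. Calls over all genes were near even in direction too, with 25.4% higher and 25.5% lower at the high concentrations in WT. The same count was not made for other sets of genes.

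No member was called in 10 treatments, all at the low concentration, most of which changed few genes at all. The shares of all genes higher and lower were 0.716% and 0.667% with 400 µM acetaminophen, 0.0883% and 0.0294% with 400 µM caffeine, 0.0687% and 0.0196% with 18 µM chloramphenicol, and 0.118% and 0.0196% with 16 µM diclofenac. They were 0.0196% and 0% with 400 µM isoniazid, 0.844% and 0.775% with 0.6 µM ketoconazole, 0.0393% and 0.0196% with 160 µM ranitidine, and 1.13% and 1.28% with 2.4 µM simvastatin. Indomethacin at 12 µM (3.53% and 2.34%) and sulfasalazine at 4 µM (9.35% and 8.03%) changed more genes, again without a member among the calls.

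**Figure D1:**
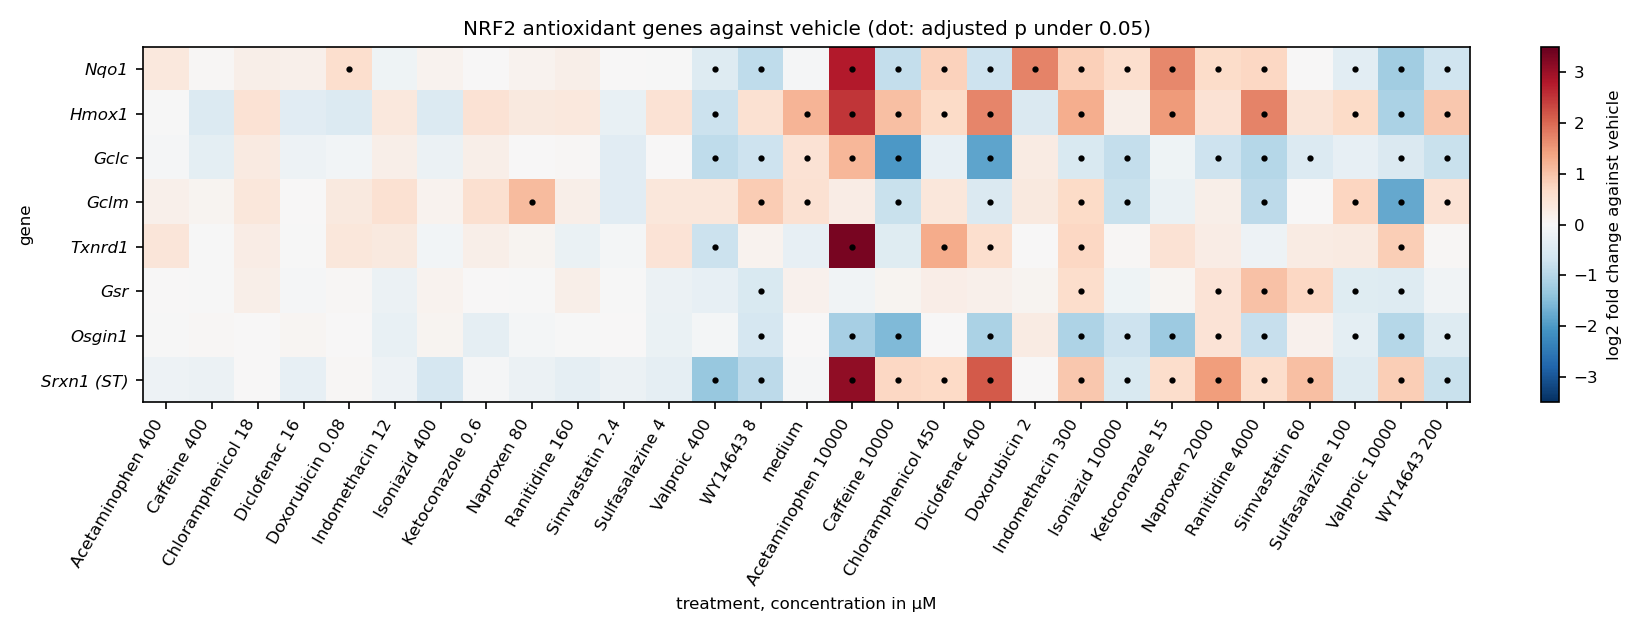
Log2 fold change against vehicle of 7 members (WT assay) and Srxn1 (ST assay) in the 28 treatments and medium, with color for the fold change and dots for an adjusted p under 0.05. Acetaminophen at 10000 µM stands out by the high values of Txnrd1 (3.31) and Srxn1 (3.10), while Gclc and Osgin1 are lower in 11 treatments each.

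Nqo1 encodes NAD(P)H quinone dehydrogenase, which reduces quinones by a pair of electrons at once and so avoids semiquinones. In vehicle it measured 68.4, 63.9 and 58.2 CPM in batch 1 and 55.8 to 66.9 CPM (median 58.9) in batch 2. Acetaminophen at 10000 µM gave wells of 240, 392 and 326 CPM in batch 1 and 253, 352 and 335 CPM in batch 2. Every acetaminophen well was thus above every vehicle well, with an L2FC of 2.78 (SE 0.15, adjusted p = 3.16e-41), a 6.87-fold rise. Doxorubicin at 2 µM gave 127, 127 and 130 CPM in batch 1 and 396, 243 and 220 CPM in batch 2 (L2FC 1.73, SE 0.15, adjusted p = 2.7e-21), and 15 µM ketoconazole gave 203, 184, 220, 212, 157 and 160 CPM (L2FC 1.67, SE 0.15). Both sets of wells were above vehicle in each batch, and the doxorubicin wells of batch 2 were above those of batch 1. The lowest L2FC of Nqo1 came with 10000 µM valproic acid, at 30.8, 49.3 and 35.7 CPM in batch 1 and 27.6, 21.9 and 25.6 CPM in batch 2 (L2FC -1.23, SE 0.16, adjusted p = 8.14e-12). None of these wells reached the vehicle wells of its batch.

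Of the other Nqo1 calls, chloramphenicol 450 µM (L2FC 0.81), indomethacin 300 µM (0.84), ranitidine 4000 µM (0.73), naproxen 2000 µM (0.64), isoniazid 10000 µM (0.59) and doxorubicin 0.08 µM (0.58) were higher. WY14643 at 8 µM (-0.89) and 200 µM (-0.70), caffeine 10000 µM (-0.84), diclofenac 400 µM (-0.73), valproic acid 400 µM (-0.46) and sulfasalazine 100 µM (-0.37) were lower. The sulfasalazine call is the least secure of all: its adjusted p was 0.0426, and it was lost in 13 of 23 alternatives, among them leaving out treated replicate 1 or 3, vehicle well 1 or 2 of batch 1, or vehicle well 2, 4 or 5 of batch 2. The call at 400 µM valproic acid was lost without treated replicate 1 or 3. With wells summed per rat, the calls of isoniazid, 400 µM valproic acid, sulfasalazine and 0.08 µM doxorubicin were lost. Wells of Nqo1 did not overlap with vehicle in either batch in 14 treatments, 8 above and 6 below, beside 7.46% and 10.7% of all pairs of a gene and a treatment.

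Nqo1 is also induced through the aryl hydrocarbon receptor (AhR), of whose 5 listed genes Cyp1a1, Cyp1a2, Cyp1b1 and Tiparp were tested. Under 10000 µM acetaminophen Cyp1a1 was lower (L2FC -5.00), Tiparp (3.18) and Cyp1b1 (2.46) were higher and Cyp1a2 measured -0.02 without a call. All 4 were higher with 15 µM ketoconazole (Cyp1a1 0.53, Cyp1a2 0.43, Cyp1b1 2.40, Tiparp 1.33), with 300 µM indomethacin (Cyp1a1 2.33, Cyp1a2 2.09, Cyp1b1 1.12, Tiparp 0.75) and with 10000 µM isoniazid (from 1.24 for Cyp1a1 to 5.26 for Cyp1b1), and Nqo1 was higher in each. With 100 µM sulfasalazine (Cyp1a1 0.79, Tiparp 1.21) and 8 µM WY14643 (Cyp1a1 0.48, Tiparp 1.44, Cyp1a2 -0.65), Nqo1 was lower. With 400 µM isoniazid Cyp1a1 (0.94) and Cyp1a2 (1.59) were higher and Nqo1 was not called. Under 4000 µM ranitidine Cyp1a1 (-4.63) and Cyp1a2 (-2.16) were lower, and Cyp1b1 (3.68) and Nqo1 higher. Cyp1a1 (0.70) and Tiparp (0.64) were higher with 450 µM chloramphenicol, as was Nqo1. With 2 µM doxorubicin, Cyp1a1 (-1.28) and Cyp1a2 (-1.50) were lower and Nqo1 higher. Cyp1a2 was lower (-2.12) and Nqo1 higher with 2000 µM naproxen. Under 10000 µM valproic acid Cyp1a1 (-4.29), Cyp1a2 (-2.32) and Nqo1 were lower and Cyp1b1 (3.83) higher. Cyp1a1 (-3.45), Cyp1a2 (-2.72) and Nqo1 were lower with 400 µM diclofenac. Caffeine at 10000 µM had Cyp1a1 (0.45) and Cyp1b1 (2.79) higher, and Cyp1a2 (-1.90) and Nqo1 lower. The part of this receptor in the Nqo1 values was not tested.

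Hmox1 encodes heme oxygenase 1, the inducible enzyme that opens heme to biliverdin, carbon monoxide and iron. Its vehicle wells differed widely, with 163, 155 and 192 CPM in batch 1, 340, 707 and 619 CPM on the first plate of batch 2 and 322, 272 and 272 CPM on the second. The difference between these plates of batch 2 was -0.93 on the log2 scale (SE 0.30, adjusted p = 0.198 in edgeR). The wells of 10000 µM acetaminophen held 735, 888 and 815 CPM in batch 1 and 1419, 1511 and 1891 CPM in batch 2, all above the vehicle wells (L2FC 2.51, SE 0.26, adjusted p = 7.36e-17). Diclofenac at 400 µM gave 642, 686 and 776 CPM in batch 1 and 1205, 1328 and 1455 CPM in batch 2 (L2FC 1.71, SE 0.26), and these too lay above vehicle. Ranitidine at 4000 µM gave 823, 708 and 772 CPM in batch 1 and 699, 900 and 781 CPM in batch 2 (L2FC 1.74, SE 0.26). Its wells were far above vehicle in batch 1 and overlapped with the highest vehicle well in batch 2, where against vehicle of its own plate the L2FC was 0.60 (adjusted p = 0.0822).

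Hmox1 was also higher with ketoconazole 15 µM (L2FC 1.49), indomethacin 300 µM (1.29), caffeine 10000 µM (1.05), WY14643 200 µM (0.93), sulfasalazine 100 µM (0.67) and chloramphenicol 450 µM (0.66). The last had 230, 188 and 268 CPM in batch 1 and 1533, 525 and 599 CPM in batch 2. One well of batch 2 stood far above its neighbours, and the groups overlapped. The chloramphenicol call was lost in 11 of 23 alternatives, among them without treated replicate 1, without vehicle well 1 or 2 of batch 1, and without vehicle well 1, 4, 5 or 6 of batch 2. The sulfasalazine call was lost in 9, among them without treated replicate 1 and without vehicle well 4, 5 or 6 of batch 2. The lowest L2FC of Hmox1 was that of 10000 µM valproic acid, with 139, 118 and 140 CPM in batch 1 and 157, 132 and 165 CPM in batch 2, all under vehicle (L2FC -1.10, SE 0.28, adjusted p = 0.000223). At 400 µM valproic acid the L2FC was -0.74, and that call was lost in 7 of 23 alternatives, among them without any 1 of the treated replicates and without vehicle well 2 or 3 of batch 2. The caffeine call was lost without the batch in the fit and against vehicle of its own plate in batch 2 (L2FC 0.46, adjusted p = 0.183), and that of WY14643 without the batch. With wells summed per rat, the calls of caffeine, WY14643, sulfasalazine, chloramphenicol and valproic acid at both concentrations were lost.

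Heat shock factors induce Hmox1 as well, and of 5 of their targets listed, 3 were tested. Under 10000 µM acetaminophen Hspa1a (L2FC 4.79) and Dnajb1 (2.48) were higher, and Hspb1 measured -0.02. With 400 µM diclofenac Hspb1 (1.83), Hspa1a (1.38) and Dnajb1 (1.15) were all higher, and with 4000 µM ranitidine Hspb1 (1.81) and Dnajb1 (0.92). All 3 were higher with 10000 µM caffeine (Hspb1 1.62, Hspa1a 1.56, Dnajb1 0.90), where Hmox1 was higher. Hmox1 was also higher with 200 µM WY14643 (Dnajb1 0.71, Hspb1 0.51), 300 µM indomethacin (Dnajb1 0.62) and 100 µM sulfasalazine (Hspb1 -0.62). Naproxen at 2000 µM had Hspb1 (0.77) and Dnajb1 (0.65) higher and no Hmox1 call. With 15 µM ketoconazole, where Hmox1 was higher, Hspa1a was lower (-1.13). With 10000 µM valproic acid, where Hmox1 was lower, Hspb1 (2.47) and Hspa1a (2.03) were higher. Kupffer cell and leukocyte markers, which belong to cells that also make heme oxygenase 1, summed to 117 to 149 CPM with 4000 µM ranitidine, 100 to 151 CPM with 10000 µM caffeine and 22.9 to 45.4 CPM with 10000 µM acetaminophen. With 10000 µM valproic acid, where Hmox1 was lower, they summed to 31.3 to 41.2 CPM. Of the 4 of these 6 markers that passed the filter, 2 were higher and 2 lower with ranitidine, and 1 higher and 2 lower with caffeine. With each of acetaminophen and valproic acid at 10000 µM, 1 was higher and 3 lower. The part of either in the Hmox1 values was not tested, and fewer cells of a type cannot be told apart from less RNA per cell.

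**Figure D2:**
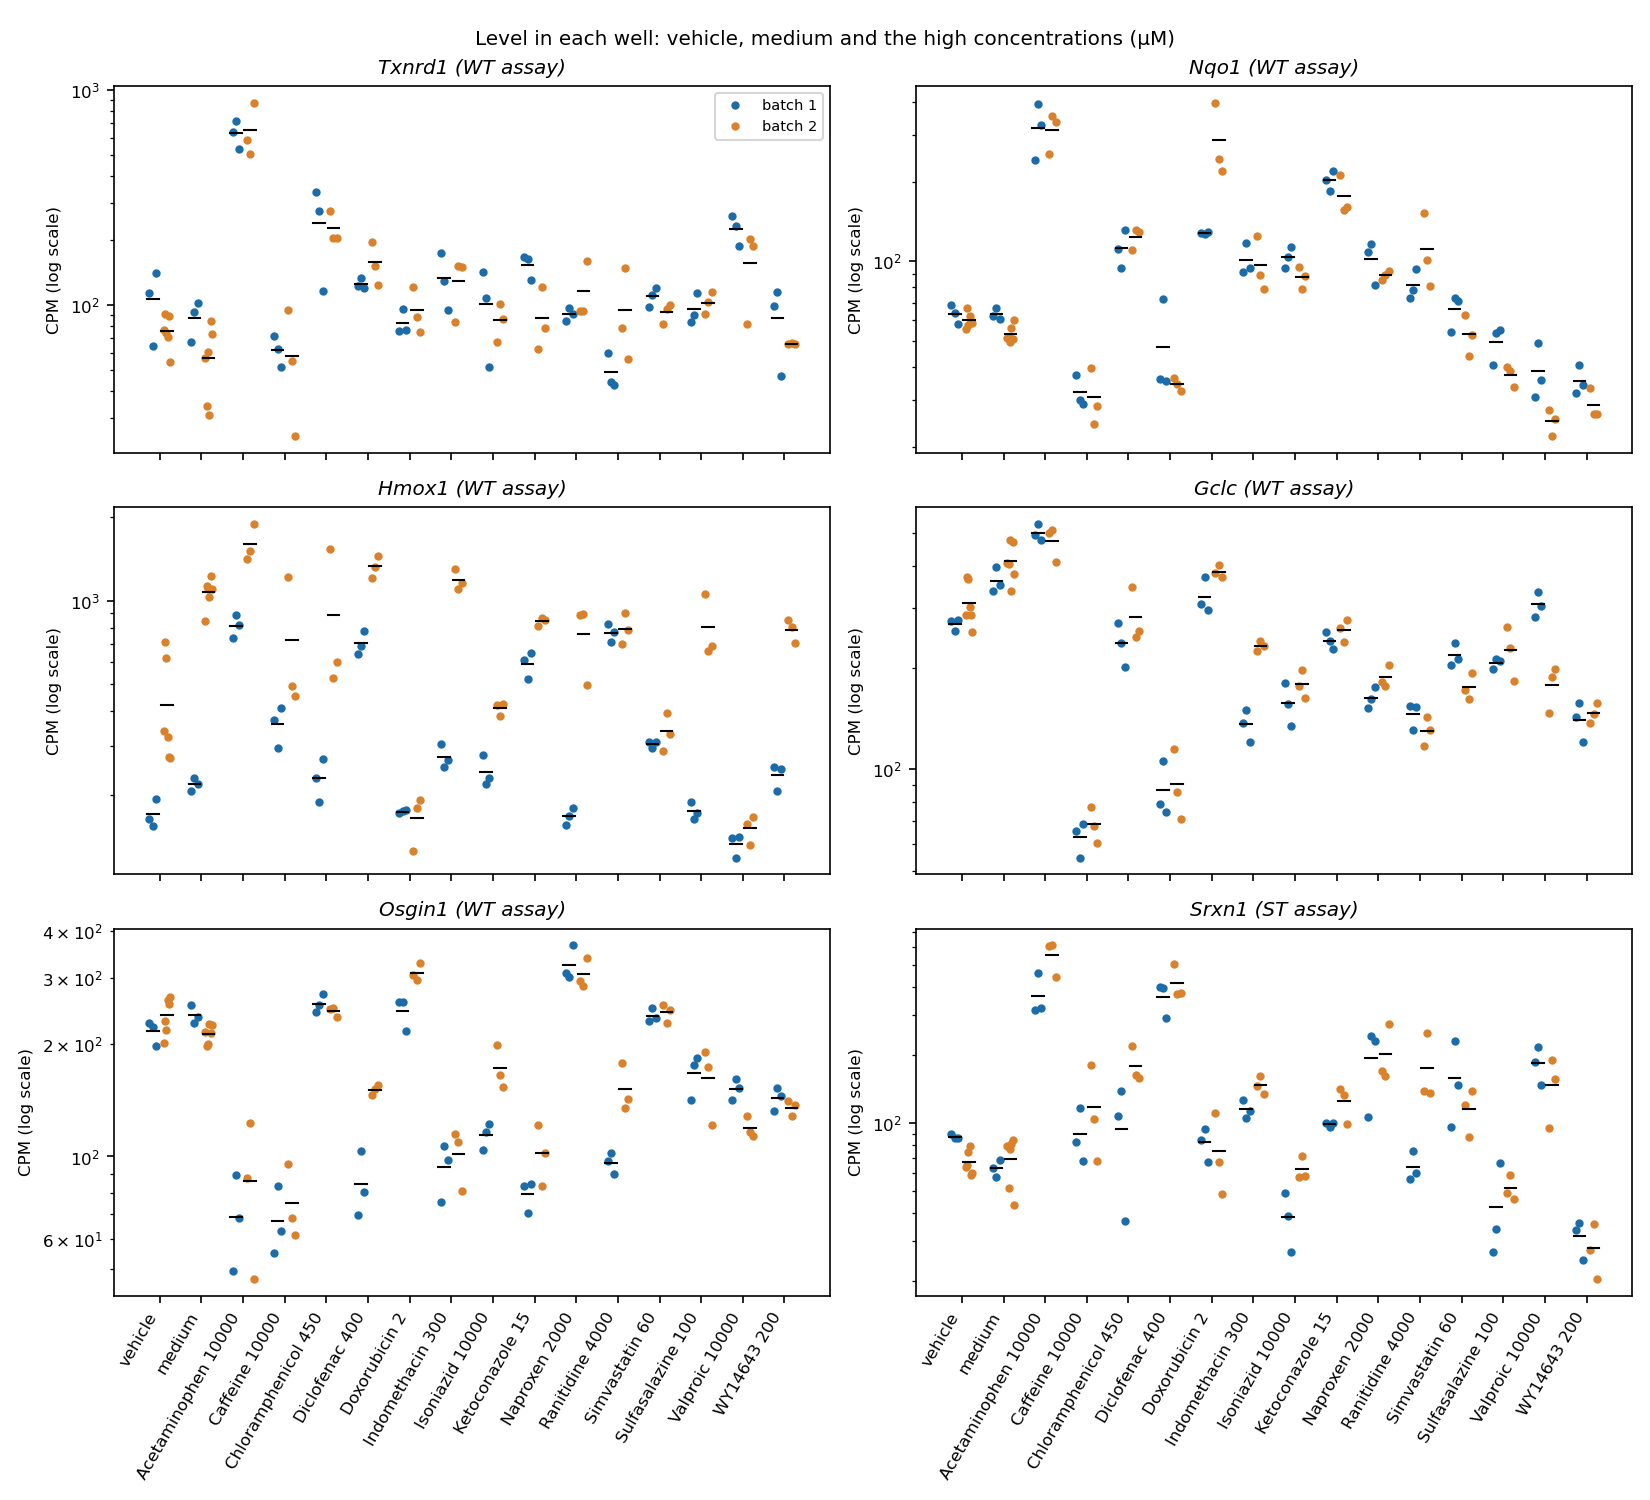
CPM per well (log axis) of 5 members in WT and Srxn1 in ST, in vehicle, medium and the 14 high concentrations. Points are wells colored by batch and bars are the mean of a batch. The acetaminophen wells of Nqo1, between 240 and 392 CPM, all lie above the vehicle wells of 55.8 to 68.4 CPM, and the vehicle wells of Hmox1 spread from 155 to 707 CPM.

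Gclc and Gclm encode the catalytic and the modifier subunit of glutamate-cysteine ligase, the rate-limiting enzyme of glutathione synthesis. Gclc measured 274, 257 and 277 CPM in vehicle of batch 1 and 255 to 372 CPM (median 294) in batch 2. Wells with 10000 µM acetaminophen held 494, 533, 477, 501, 512 and 410 CPM, above vehicle in both batches, and this was its only rise (L2FC 1.16, SE 0.13, adjusted p = 4.51e-15). Caffeine at 10000 µM gave 65.3, 54.7 and 68.6 CPM in batch 1 and 77.5, 67.9 and 60.5 CPM in batch 2, a 4.04-fold fall (L2FC -2.02, SE 0.15, adjusted p = 5.99e-28). Diclofenac at 400 µM gave 79.1, 105, 74.8, 115, 85.6 and 71.3 CPM (L2FC -1.85, SE 0.14). Both chemicals left every well under vehicle.

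Gclc was also lower with ranitidine 4000 µM (L2FC -0.98), valproic acid 400 µM (-0.89), isoniazid 10000 µM (-0.84), WY14643 200 µM (-0.78) and 8 µM (-0.74), naproxen 2000 µM (-0.73), indomethacin 300 µM (-0.54), valproic acid 10000 µM (-0.49) and simvastatin 60 µM (-0.47). The wells of Gclc were below vehicle in both batches in 10 treatments and above it in 1, beside 10.7% and 7.46% of all pairs. Valproic acid at 10000 µM is the exception among the calls: Gclc held 283, 336 and 304 CPM in batch 1 and 146, 187 and 198 CPM in batch 2. Per total counts the batch 1 wells were above vehicle, while after TMM scaling the L2FC was 0.01 in batch 1 and -1.09 in batch 2, so the call rests on batch 2. In ST the L2FC was -0.27 without a call (adjusted p = 0.0688). With wells summed per rat, the Gclc calls of indomethacin, simvastatin and 10000 µM valproic acid were lost.

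Gclm was measured at 12.5, 13.3 and 12.7 CPM in vehicle of batch 1 and 12.2 to 19.8 CPM in batch 2. Naproxen at 80 µM, its low concentration, gave the highest L2FC, with 23.9, 22.5 and 23.3 CPM in batch 1 and 40.3, 31.1 and 30.4 CPM in batch 2, all above vehicle (L2FC 1.11, SE 0.19, adjusted p = 2.36e-06). Gclm was the 1 member of 7 called in that treatment, where 8.64% of all genes were higher and 7.40% lower. Valproic acid at 10000 µM gave the lowest L2FC, with 5.53, 4.96 and 4.49 CPM in batch 1 and 2.94, 6.55 and 5.12 CPM in batch 2, all below vehicle (L2FC -1.79, SE 0.23, adjusted p = 7.75e-12).

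Gclm was higher with WY14643 at 8 µM (L2FC 0.88) and 200 µM (0.51), sulfasalazine 100 µM (0.75) and indomethacin 300 µM (0.67), and lower with ranitidine (-0.92), isoniazid (-0.78), caffeine (-0.77) and diclofenac (-0.49) at their high concentrations. The indomethacin call was lost in 3 of 23 alternatives, without treated replicate 2, in batch 1 alone and with wells summed per rat. The call at 200 µM WY14643 was lost in 9 of 23 alternatives, among them without treated replicate 1 or 2 and without vehicle well 1 of batch 2, and that of diclofenac in 6, among them without treated replicate 3. Opposite calls of the subunits were made with WY14643 at both concentrations and with indomethacin, where Gclm was higher and Gclc lower. Both subunits were lower in 5 treatments, the high concentrations of ranitidine, isoniazid, caffeine, diclofenac and valproic acid. With wells summed per rat, the Gclm calls of diclofenac, indomethacin, isoniazid, sulfasalazine and 200 µM WY14643 were lost. With 10000 µM acetaminophen, Gclm measured an L2FC of 0.25 (SE 0.20, adjusted p = 0.256) in WT and 0.72 (adjusted p = 0.00607) in ST.

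An antioxidant response element core (TGACNNNGC on either strand) was searched in the RefSeq promoter windows of assembly GRCr8, from 250 bases before to 50 after each start. Windows were found for 7 of the 9 members, and Hmox1 and Gsr were not in the table. Txnrd1 had more than 1 window, of which 1 held the core, and bases farther than 250 before a start were not searched. Of 8 windows of members, 2 held the core, those of Gclm and Txnrd1, beside 12.1% of all 33469 windows. They are shown because no other member window held it, with the core in capitals, 5′ to 3′ in the direction of the gene:
Gclm, chr2:213031953-213031981, plus strand, core 172 to 164 bases before the start: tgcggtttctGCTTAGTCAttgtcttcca
Txnrd1, chr7:22755964-22755992, minus strand, core 78 to 70 bases before the start: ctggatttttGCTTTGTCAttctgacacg
In both the core reads on the strand opposite to the gene. A match to these letters is a description of the window only.

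Slc7a11 encodes xCT, the transporter that takes up cystine for glutathione synthesis. Its counts were near the lower end of the assay, with 10, 2 and 5 counts in vehicle wells of batch 1 and 5 to 8 in batch 2, and 6 wells of the assay were at 0. It was therefore tested only in a fit without the filter, over 20697 genes, where it was higher in 6 and lower in 1 of 28 treatments, beside 8.01% and 7.91% of all pairs. With 10000 µM acetaminophen the wells held 17, 18 and 8 counts in batch 1 and 62, 65 and 50 counts in batch 2 (L2FC 2.89, SE 0.32, adjusted p = 3.46e-15). Diclofenac 400 µM (L2FC 1.86), naproxen 2000 µM (1.54), indomethacin 300 µM (1.32), ranitidine 4000 µM (1.31) and ketoconazole 15 µM (1.14) followed. Caffeine at 10000 µM left 2, 1 and 0 counts in batch 1 and 2, 0 and 0 in batch 2, a sum of 5 against 51 in the 9 vehicle wells (L2FC -2.46, SE 0.62). The ketoconazole call was lost with wells summed per rat (adjusted p = 0.0844).

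Slc7a11 is shared with the amino acid response through ATF4. Of 7 genes of that response, Phgdh (L2FC -4.67), Psat1 (-3.64) and Chac1 (-2.40) were lower and Atf3 (3.14) and Ddit3 (2.58) higher with 10000 µM acetaminophen. With 400 µM diclofenac, Ddit3 (6.30), Atf3 (2.66), Trib3 (2.66) and Chac1 (1.20) were higher and Psat1 (-0.76) and Phgdh (-0.52) lower. The part of this response in the Slc7a11 values was not tested.

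Gsr encodes glutathione reductase, which regenerates glutathione from its disulfide with NADPH, and its changes were small. Vehicle wells held 26.4, 25.9 and 20.0 CPM in batch 1 and 24.1 to 30.1 CPM in batch 2. Ranitidine at 4000 µM gave 45.1, 44.4 and 49.7 CPM in batch 1 and 57.8, 48.0 and 50.3 CPM in batch 2, all above vehicle (L2FC 1.02, SE 0.14, adjusted p = 2.35e-11). Simvastatin 60 µM (L2FC 0.73), indomethacin 300 µM (0.61) and naproxen 2000 µM (0.49) were also higher. WY14643 at 8 µM gave 16.5, 14.0 and 10.2 CPM in batch 1 and 17.9, 16.0 and 13.0 CPM in batch 2, all below vehicle (L2FC -0.54, SE 0.15, adjusted p = 0.00101). Valproic acid 10000 µM (-0.46) and sulfasalazine 100 µM (-0.41) were lower. The ST assay gave a smaller rise with ranitidine (L2FC 0.58).

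Txnrd1 encodes cytosolic thioredoxin reductase, which keeps thioredoxin reduced. Its wells varied widely within a group (pooled SD 0.50 on the log2 CPM scale), with 113, 64.3 and 142 CPM in vehicle of batch 1 and 54.2 to 91.2 CPM in batch 2. With 10000 µM acetaminophen it held 641, 715 and 534 CPM in batch 1 and 584, 502 and 874 CPM in batch 2. All 6 wells were above vehicle, and the L2FC of 3.31 (SE 0.25, adjusted p = 1.44e-26), a 9.93-fold rise, was the largest absolute L2FC of a member in WT. Chloramphenicol at 450 µM followed with an L2FC of 1.29 (335, 274, 116, 275, 206 and 206 CPM), then valproic acid 10000 µM (0.85), indomethacin 300 µM (0.74) and diclofenac 400 µM (0.57). Valproic acid at 400 µM was the 1 treatment with a fall (L2FC -0.74, SE 0.26, adjusted p = 0.0199), with 96.2, 29.2 and 60.8 CPM in batch 1 and 67.6, 34.0 and 23.7 CPM in batch 2. These wells overlapped with vehicle in both batches, and the call was lost in 5 of 23 alternatives, among them without treated replicate 2 or 3. That of diclofenac was lost in 6, among them without treated replicate 1 or 2, vehicle well 2 of batch 1 or vehicle well 6 of batch 2, and with wells summed per rat. The indomethacin call was lost in batch 1 alone and in ST. That of 10000 µM valproic acid was lost against vehicle of its own plate in batch 2 (edgeR adjusted p = 0.104).

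Srxn1 encodes sulfiredoxin, which repairs overoxidised peroxiredoxins. In ST its vehicle wells held 89.5, 85.9 and 85.9 CPM in batch 1 and 58.8 to 79.6 CPM in batch 2. Over the 8 members tested in ST, 47 of 224 pairs were higher and 41 lower, beside 17.1% and 17.6% of all genes. Acetaminophen at 10000 µM gave 317, 463 and 322 CPM in batch 1 and 611, 613 and 442 CPM in batch 2 (L2FC 3.10, SE 0.19, adjusted p = 6.9e-35), and 400 µM diclofenac gave 401, 396, 292, 506, 375 and 377 CPM (L2FC 2.16, SE 0.19). Both lay above all vehicle wells. Naproxen 2000 µM (1.45), simvastatin 60 µM (1.05), indomethacin 300 µM (0.93), valproic acid 10000 µM (0.86), caffeine 10000 µM (0.73), chloramphenicol 450 µM (0.68), ketoconazole 15 µM (0.60) and ranitidine 4000 µM (0.60) were higher as well.

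The lowest L2FC of Srxn1 was that of 400 µM valproic acid, with 32.9, 27.3 and 23.7 CPM in batch 1 and 35.1, 18.9 and 25.3 CPM in batch 2, all under vehicle (L2FC -1.32, SE 0.22, adjusted p = 1.93e-07). WY14643 at 8 µM (-0.92) and 200 µM (-0.77) and isoniazid 10000 µM (-0.53) were lower too. With ranitidine the batches differed, at 56.6, 75.4 and 60.5 CPM in batch 1, all under vehicle, and 139, 251 and 136 CPM in batch 2, all above it. A WT column under another name, AABR07054319.1, carries the same probe number as Srxn1 in ST, and both were called with the same sign in 14 treatments and differed in L2FC by at most 0.42. The Srxn1 calls of chloramphenicol, isoniazid, ketoconazole and ranitidine were lost with wells summed per rat.

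Osgin1 encodes an oxidative stress induced growth inhibitor. It was mostly lower than vehicle, where it held 228, 222 and 197 CPM in batch 1 and 201 to 266 CPM in batch 2. Caffeine at 10000 µM gave 55.2, 83.5 and 63.1 CPM in batch 1 and 95.3, 68.5 and 61.8 CPM in batch 2 (L2FC -1.56, SE 0.12, adjusted p = 2.11e-26). Naproxen at 2000 µM was the 1 treatment with a rise, with 309, 301 and 367 CPM in batch 1 and 295, 285 and 340 CPM in batch 2 (L2FC 0.49, SE 0.11, adjusted p = 5.53e-05). The caffeine wells were all below and the naproxen wells all above vehicle. The other falls ranged from an L2FC of -1.27 with 15 µM ketoconazole and -1.15 with 10000 µM acetaminophen to -0.34 with 100 µM sulfasalazine. In 12 treatments all wells of Osgin1 were below vehicle in both batches and in 1 all were above, beside 10.7% and 7.46% of all pairs of a gene and a treatment.

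By treatment, 12 had calls for at least 5 of the 8 members tested in either assay. In WT, which tested 7, acetaminophen at 10000 µM had 4 higher and 1 lower (background 38.8% and 40.1%), with Srxn1 higher in ST besides. Txnrd1, Srxn1, Nqo1, Hmox1 and Gclc were higher and Osgin1 lower. Indomethacin at 300 µM had 5 of 7 higher and 2 lower (27.1% and 27.6%), Hmox1, Nqo1, Txnrd1, Gclm and Gsr against Osgin1 (-1.07) and Gclc (-0.54). Naproxen at 2000 µM had 3 higher and 1 lower (27.6% and 26.2%), and the rises of Nqo1, Gsr and Osgin1 were between 0.49 and 0.64.

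Diclofenac at 400 µM had 2 higher, Hmox1 and Txnrd1, and 4 lower, Gclc, Osgin1, Nqo1 and Gclm (36.0% and 35.8%). Ranitidine at 4000 µM had 3 higher and 3 lower (32.3% and 33.9%), with Hmox1, Gsr and Nqo1 against Gclc, Gclm and Osgin1. Caffeine at 10000 µM had 1 higher, Hmox1, and 4 lower (34.6% and 31.6%). Isoniazid at 10000 µM had 1 higher, Nqo1, and 3 lower, Gclc, Gclm and Osgin1 (17.4% and 17.3%). In all 4 of these treatments both Gclc and Osgin1 were lower.

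Valproic acid gave a different picture at each concentration. At 10000 µM, 1 of 7 members was higher, Txnrd1 (L2FC 0.85), and 6 were lower (33.5% and 33.2%), while Srxn1 was higher in ST (0.86). At 400 µM none was higher and 4 were lower (15.1% and 14.0%), and Srxn1 (-1.32) was lower in ST. WY14643, an agonist of the peroxisome proliferator receptor PPARα, had 1 higher, Gclm, and 4 lower at 8 µM (28% and 28.2%), and 2 higher, Hmox1 and Gclm, and 3 lower at 200 µM (26.0% and 25.4%). Sulfasalazine at 100 µM had 2 higher and 3 lower (21.3% and 19.6%), with absolute L2FC of at most 0.75. The Gsr and Osgin1 calls were lost without treated replicate 3, and each of these 5 calls was lost with wells summed per rat.

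In treatments with fewer calls, ketoconazole at 15 µM had 2 higher and 1 lower (25.0% and 26.3%), chloramphenicol at 450 µM 3 higher (16.1%), simvastatin at 60 µM 1 higher and 1 lower (11.4% and 12.5%), and doxorubicin 1 higher at 2 µM (9.07%, with 10.3% lower) and 1 at 0.08 µM (1.08%). Both doxorubicin calls were those of Nqo1. The call at 0.08 µM was lost without treated replicate 2, with wells summed per rat, with only the wells of this treatment and vehicle in the fit, and in batch 1 alone, where the wells of 68.8, 64.7 and 53.8 CPM overlapped with vehicle, while those of batch 2 held 102, 191 and 89.7 CPM.

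Hepatocyte markers moved in the same wells. Their summed level was 6892 to 9323 CPM with 400 µM diclofenac, 11830 to 17574 with 4000 µM ranitidine, 15518 to 21977 with 10000 µM valproic acid, 16075 to 22519 with 10000 µM caffeine, 19438 to 20625 with 2000 µM naproxen, 19659 to 23233 with 15 µM ketoconazole, 25128 to 30389 with 10000 µM isoniazid, 24926 to 30287 with 2 µM doxorubicin, 22636 to 28383 with 300 µM indomethacin, 22486 to 30502 with 450 µM chloramphenicol, 29981 to 34942 with 200 µM WY14643 and 23231 to 36354 with 10000 µM acetaminophen, all under the vehicle wells. Of the 7 markers, 6 were lower with each of diclofenac, ranitidine and valproic acid, 6 were lower and 1 higher with naproxen, 5 were lower with each of isoniazid, ketoconazole and doxorubicin, 3 were lower and 1 higher with indomethacin, 3 were lower with chloramphenicol, 2 were lower and 2 higher with 200 µM WY14643, 4 were lower and 2 higher with caffeine, and 2 were lower and 2 higher with acetaminophen. With 400 µM valproic acid, where the 4 WT calls of members were all lower, none of the 7 was called. Both stellate cell markers that were tested were lower with 10000 µM acetaminophen, 10000 µM caffeine, 2 µM doxorubicin, 300 µM indomethacin, 4000 µM ranitidine, 2000 µM naproxen, 400 µM diclofenac and 450 µM chloramphenicol. The stellate list summed to 3.38 to 17.6 CPM with doxorubicin, 6.87 to 36.4 with caffeine and 10.7 to 44.5 with acetaminophen. All 3 bile duct markers tested were lower with diclofenac, where that list summed to 6.81 to 10.5 CPM. Of the 3, 2 were lower with each of indomethacin and chloramphenicol, and 2 were lower and 1 higher with naproxen and with 60 µM simvastatin. The part of these shifts in the members' values was not tested.

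The high and low concentrations were compared directly. Of 98 pairs, 25 were higher and 26 lower at the high concentration, beside 20.1% and 20.7% of all genes. Hmox1 (6 chemicals), Txnrd1 (4) and Gsr (4) were called higher with no lower call, while Gclm was lower with 7 chemicals and higher with none. Nqo1 was higher with 8 and lower with 3, Gclc higher with 2 and lower with 8, and Osgin1 higher with 1 and lower with 8. Srxn1, in ST, was higher with 10 of 14 chemicals, from an L2FC of 0.66 with ketoconazole to 3.28 with acetaminophen. Its chloramphenicol and ketoconazole calls were lost with wells summed per rat. The shares above are those of WT, and none was counted over all ST genes between concentrations, so the Srxn1 count stands without a background.

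With wells summed per rat, 18 of the 25 higher and 21 of the 26 lower WT calls were made. The 12 lost were those of Nqo1 with chloramphenicol, isoniazid, naproxen and ranitidine, Hmox1 with indomethacin and ketoconazole, Gclc with chloramphenicol, isoniazid, ketoconazole and valproic acid, and Gclm with diclofenac and ketoconazole. For acetaminophen the L2FC between concentrations ran from -1.14 for Osgin1 to 2.88 for Txnrd1, for diclofenac from -1.67 to 2.12, and for valproic acid from an L2FC of -2.17 (SE 0.25) for Gclm to 1.60 (SE 0.28) for Txnrd1, with 2.19 for Srxn1 in ST. WY14643 and sulfasalazine had no call of 7 between their concentrations. For WY14643 the L2FC ranged from -0.37 to 0.43, where 2.52% of all genes were higher and 3.22% lower. For sulfasalazine it ranged from -0.35 to 0.36 (7.57% and 5.29%). At an unadjusted p under 0.05 in edgeR stood Gsr with WY14643 and Nqo1 and Gclc with sulfasalazine.

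**Figure D3:**
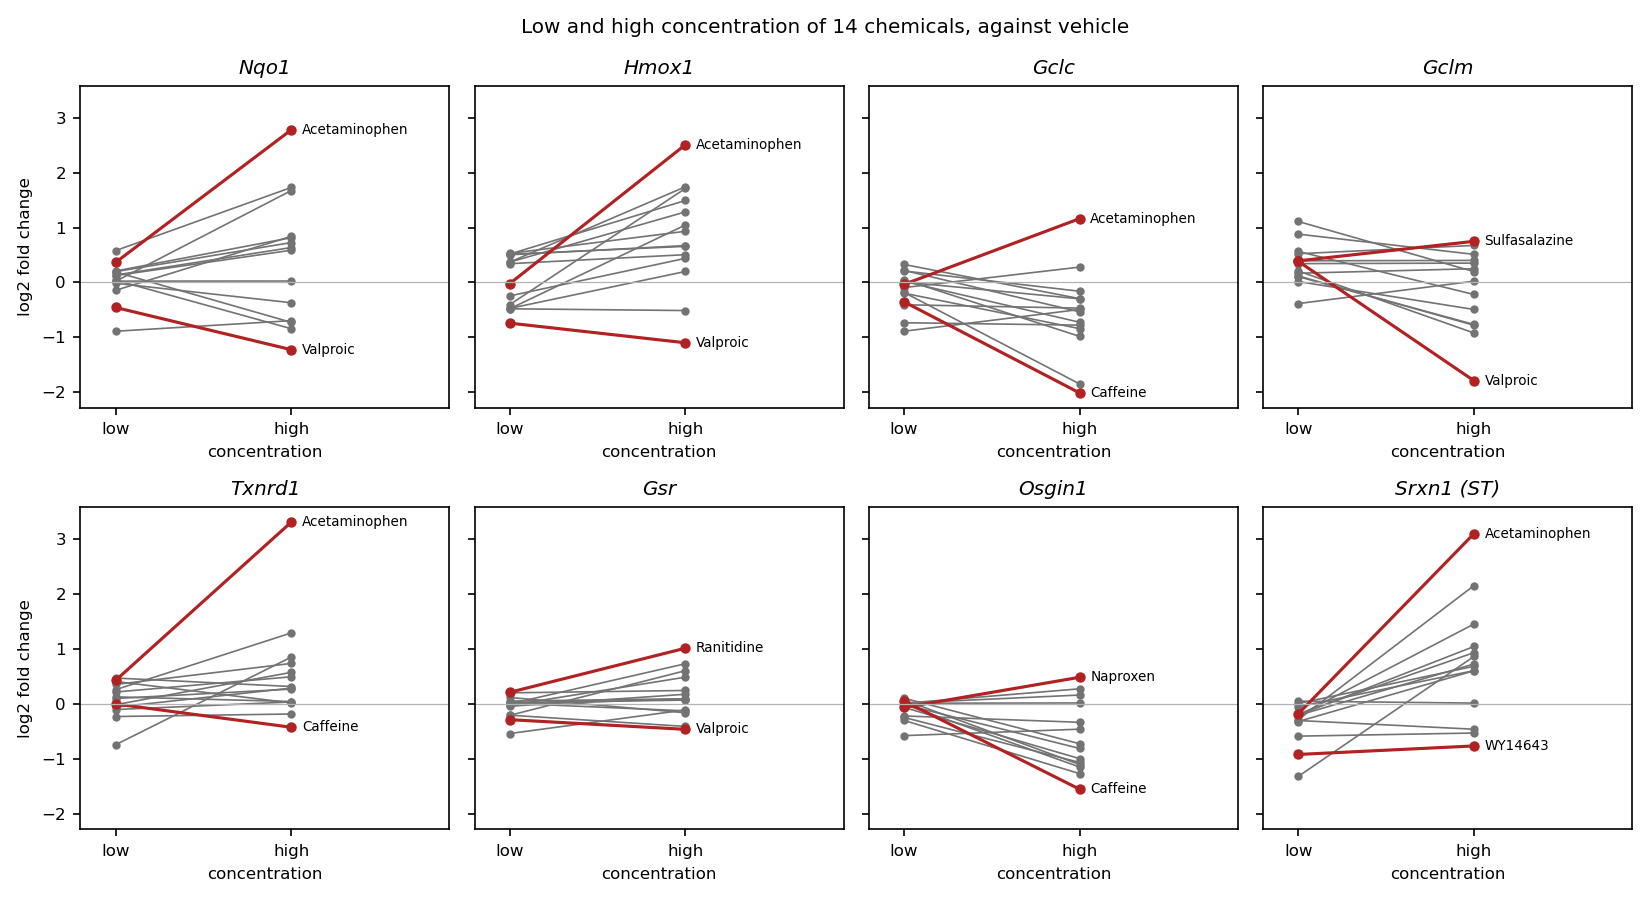
Log2 fold change against vehicle (y axis) at the low and the high concentration (x axis), 1 line per chemical and 1 panel per member, with the highest and the lowest chemical at the high concentration in red. The lines fan out toward the high concentration, with acetaminophen highest for Nqo1 (2.78) and Txnrd1 (3.31).

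Culture medium without DMSO was compared with vehicle. Of the 7 members, 3 were higher in medium and none lower, beside 7.51% and 5.10% of all genes: Hmox1 (L2FC 1.18, SE 0.24, adjusted p = 7.68e-05), Gclm (0.55, SE 0.18, adjusted p = 0.0264) and Gclc (0.50, SE 0.12, adjusted p = 0.00132). In the fit without the filter Slc7a11 was also higher in medium (L2FC 1.05, SE 0.34, adjusted p = 0.0458), with 14, 7 and 10 counts in batch 1 and 4 to 18 in batch 2. Hmox1 held 206, 229 and 217 CPM in medium of batch 1 and 846 to 1229 CPM (median 1105) in batch 2, all above the vehicle wells of the same batch. The L2FC of Hmox1 was 0.48 in batch 1 and 1.44 in batch 2. With wells summed per rat none of these 4 genes was called, and the Gclm call was lost in 11 of 27 alternatives, among them without vehicle well 1 of batch 2 and without medium well 2 or 3 of batch 1 or 5 of batch 2. Kupffer cell and leukocyte markers summed to 69.6 to 97.2 CPM in medium.

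The batches, each 1 rat with its own libraries and sequencing, were compared for every call. Of the 74 called pairs of WT, 73 had the same sign in both batches, and the exception was Gclc with 10000 µM valproic acid. In batch 1 alone 55 of the 74 were called with the same sign, in batch 2 alone 70, and 53 in both. With the wells of each rat summed to 1 library per condition, 53 of the 74 were called. Gsr and Osgin1 lost their sulfasalazine calls there, and the others lost are named above. Of the 21 lost, the largest was Hmox1 with 10000 µM valproic acid (L2FC -1.08, adjusted p = 0.0769).

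The interaction of batch and treatment was called for 9 of 196 pairs, beside 2.44% of all genes. Nqo1 rose more in batch 2 with doxorubicin, by 1.08 at 2 µM and 0.96 at 0.08 µM on the log2 scale. Hmox1 moved the other way with the same chemical, with differences of -1.54 and -1.52, and also with ranitidine (-1.36) and 10000 µM valproic acid (-1.24). Gclc (-1.12) and Osgin1 (-0.60) with 10000 µM valproic acid and Osgin1 with 400 µM diclofenac (0.65) were the others. For doxorubicin, Hmox1 wells of batch 2 held 197, 111 and 208 CPM at 0.08 µM and 125, 179 and 190 CPM at 2 µM, all below the vehicle wells of 272 to 707 CPM, while in batch 1 they held 171, 189 and 183 CPM and 171, 174 and 176 CPM, within the vehicle range. Over both batches neither of these Hmox1 values was called.

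**Figure D4:**
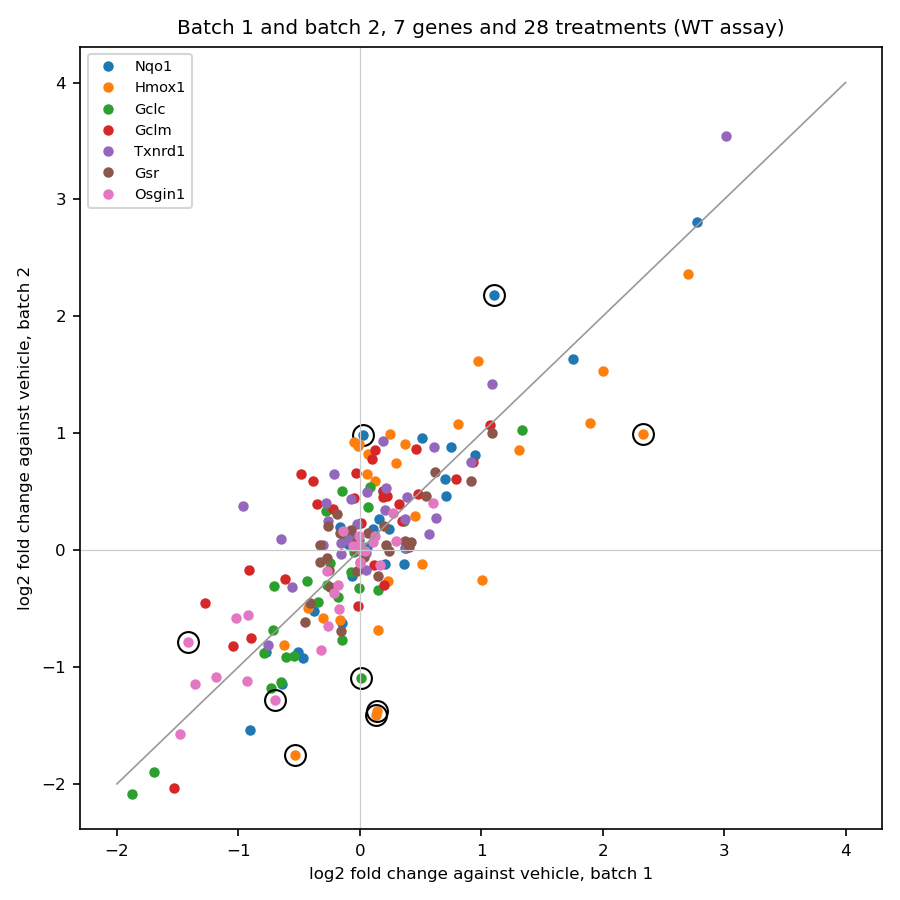
Log2 fold change of each member and treatment in batch 1 (x axis) against batch 2 (y axis), for 7 members in WT, with the 9 pairs of a called interaction circled and the diagonal drawn. Of 74 called pairs 73 lie on the same side of 0 in both batches, and the circled Hmox1 pairs lie below the diagonal.

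Both assays used lysate of the same wells and are not independent samples. For the 7 members tested in both, each assay made 74 calls, of which 67 were shared with the same sign (90.5% of either) and none had opposite signs. The median absolute difference in L2FC was 0.10 and the largest 0.65.

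The levels were also ordered over the 30 conditions, with the SD pooled within conditions and batches as the measure of spread. Of 29 neighbouring pairs in the order, the gap exceeded this SD in 5 for Nqo1, 4 for Osgin1, 3 for Gclc, 2 for Hmox1 and Gclm, and 1 for Txnrd1 and Gsr. Acetaminophen at 10000 µM stood apart at the top for Nqo1, Gclc and Txnrd1, by 0.72, 0.34 and 1.49 on the log2 CPM scale. For Hmox1, 10000 µM acetaminophen and 400 µM diclofenac did not differ beyond the spread on this scale, which is without TMM. In the fit with TMM their L2FC lay farther apart, at 2.51 and 1.71. Vehicle ranked 18 of 30 for Nqo1 and Txnrd1, 22 for Hmox1, 20 for Gclm, 14 for Gsr, 10 for Osgin1 and 7 for Gclc.

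The rest of the pathway was read from a list of 37 genes, of which 34 were in the table and 32 were tested. Of 896 pairs, 200 were higher and 155 lower than vehicle, beside the 15.2% and 15.0% over all genes. These counts rest on wells, and part of the higher calls were lost with wells summed per rat, as given at the end. The pathway calls lost are not named by gene here. Among the regulators, Bach1, the repressor that competes with NRF2, was higher in 13 treatments and lower in none, and Mafk and Cul3 were higher in 8 and 7. Nfe2l2 itself was lower in 12 and higher in 1, with L2FC of -2.08 with 4000 µM ranitidine and -1.32 with 10000 µM acetaminophen. Keap1 was higher in 5 and lower in 5, and Sqstm1, the autophagy receptor that binds KEAP1, higher in 10 and lower in 2.

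Of the enzymes that supply NADPH, 3 were mostly higher. Tkt and Idh1 were each higher in 12 treatments and lower in 2 and 4, and Me1 was higher in 9 and lower in 1. Me1, which PPARα also induces, reached 1.97 and 2.15 with 8 and 200 µM WY14643.

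Genes of glutathione and peroxide handling split. Gss, the second enzyme of glutathione synthesis, was lower in 16 treatments and higher in none, and Gpx2 was lower in 12 and higher in 1. Glrx (10 and 3), Prdx1 (9 and 1) and Sesn2 (9 and 1) were mostly higher. Glrx reached 2.62 with 8 µM WY14643. Gss fell by 2.08 on the log2 scale with 400 µM diclofenac, the treatment in which Gclc fell by 1.85.

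Of the genes of iron and heme, Ftl1, the ferritin light chain, was higher in 9 treatments and lower in 1, with 2.65 (SE 0.12) for 10000 µM acetaminophen and 1.84 for 15 µM ketoconazole, and Fth1 was higher in 5 and lower in 3. Of the biliverdin reductases, Blvra was lower in 8 and higher in none, and Blvrb higher in 6 and lower in 2. Among enzymes and pumps of detoxication, Cbr1 was higher in 11 and lower in none, and Ptgr1 lower in 11 and higher in none. Aox1 (-3.96) and Ptgr1 (-2.70) had the deepest falls, with 10000 µM valproic acid, and Abcc2, the export pump for glutathione conjugates, fell by 2.43 with 10000 µM acetaminophen and rose by 1.65 with 450 µM chloramphenicol on the log2 scale.

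**Figure D5:**
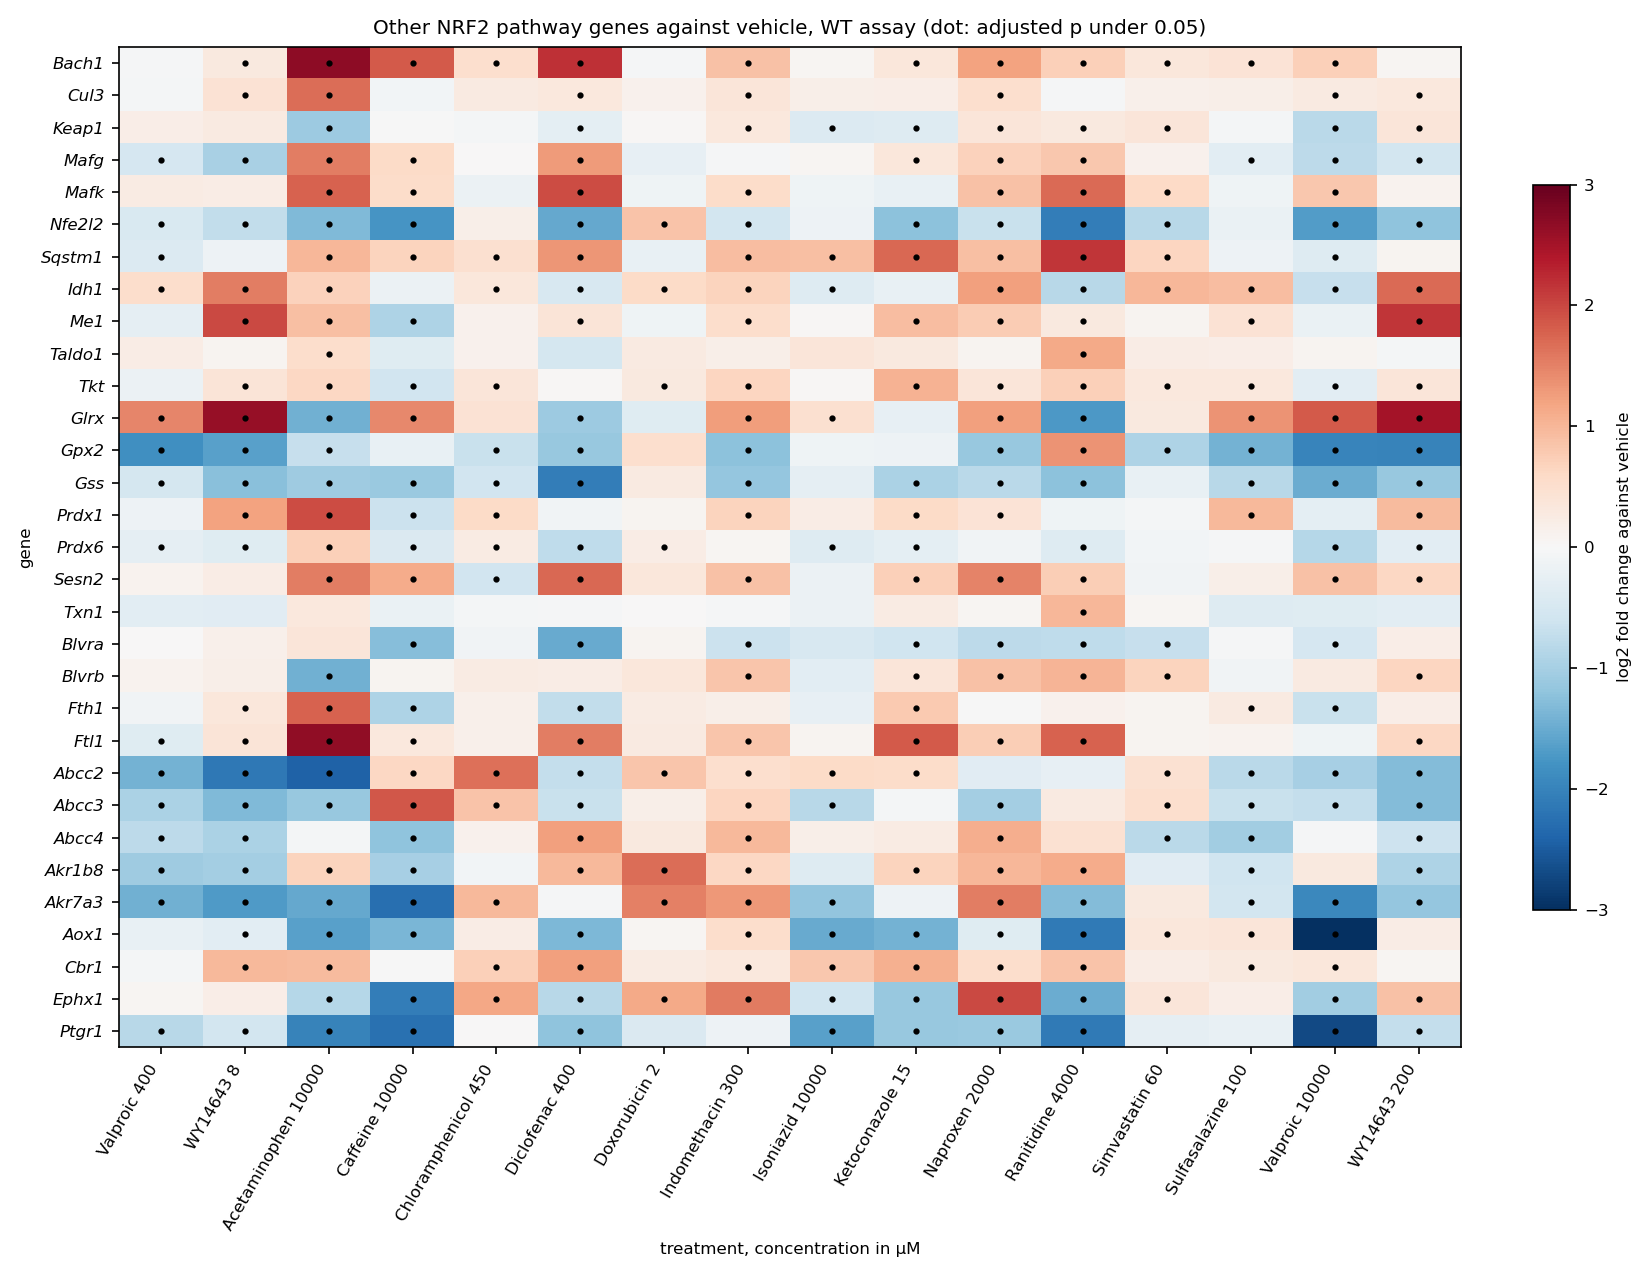
Log2 fold change against vehicle of 31 other pathway genes tested in WT, in rows grouped by role, over the 14 high concentrations and the low ones of valproic acid and WY14643. Dots mark an adjusted p under 0.05, and color ends at 3 on either side. Bach1, Cbr1 and Ftl1 are mostly higher at the high concentrations, and Gss, Gpx2, Ptgr1 and Nfe2l2 mostly lower.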

How the data were processed

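Each well of hepatocytes gave 1 TempO-Seq WT and 1 ST library from a shared lysate. The authors aligned reads with STAR 2.5.3a to build rn6, and the deposited values are raw counts per probe, not normalized. Here the counts of a gene's probes were added, and those averaging 10 counts or more over the wells of an assay were tested with edgeR 4.0.16 in R 4.3.3: TMM scaling, a quasi-likelihood fit of condition and batch over all wells, and Benjamini-Hochberg adjustment within a comparison, with a threshold of 0.05. CPM were scaled to all probe counts, without TMM. The batch, which is also the rat, is the block in this fit, since the labels give the batch of each well. The least deep WT well had 2.29 counts per CPM. DESeq2 1.42.0, other filters, scalings, batches, plates and left-out wells were the alternatives, and the fit was tested on simulated data. Treatments were described in turn where at least 5 of 8 members were called, and pathway genes were named by the 3 largest absolute changes. The values of 1 pathway gene are not reported here. Promoter windows are those of RefSeq (GRCr8). The members and lists were chosen with earlier results of these data known.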

Additional observations from a re-analysis of the deposited data

Results flagged for a closer look

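Batch and treatment interacted in 9 pairs of a member and a treatment (edgeR quasi-likelihood interaction, Benjamini-Hochberg adjusted), where 2.44% of all genes did. The difference is the L2FC of batch 2 minus that of batch 1, and each batch is 1 rat with its own libraries and sequencing. For Nqo1 it was 0.96 with 0.08 µM doxorubicin (0.02 and 0.99, adjusted p = 0.00895) and 1.08 with 2 µM doxorubicin (1.10 and 2.18, adjusted p = 0.00356). For Hmox1 it was -1.52 with 0.08 µM doxorubicin (0.14 and -1.38), -1.54 with 2 µM doxorubicin (0.13 and -1.41), -1.36 with 4000 µM ranitidine (2.33 and 0.99) and -1.24 with 10000 µM valproic acid (-0.53 and -1.75). For Gclc it was -1.12 with 10000 µM valproic acid (0.01 and -1.09), and for Osgin1 -0.60 with the same treatment (-0.69 and -1.28) and 0.65 with 400 µM diclofenac (-1.41 and -0.78).

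One vehicle well stood apart from the other 5 of its batch: Slc7a11 in well 1 of batch 2 measured 1.20 CPM, where the nearest of the others had 0.864. Over 34 groups examined this was the 1 such well, and chance gives about 1 in 20.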

How the results depend on the processing

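DESeq2 and its size factors gave 34 higher and 40 lower calls in WT, as in the edgeR fit. The fit without the batch as a block gave 29 and 37. An absolute L2FC of at least 1 left 14 and 10, and 1 of the 3 medium calls. Wells summed per rat left 0 medium calls and 133 of 200 higher calls of the other pathway genes. Summing wells per rat in ST and for Slc7a11 in WT, alternatives chosen after seeing the data, left 33 of 47 higher and 30 of 41 lower calls in ST, and 5 of 6 higher and 1 of 1 lower calls of Slc7a11. Batch 1 alone left 1 medium call and 30 of the 47 higher ST calls, and reversed Gclc with 10000 µM valproic acid to 0.010, while batch 2 gave -1.09. Leaving out treated replicates gave 31 to 35 higher and 33 to 39 lower calls, and leaving out vehicle wells 32 to 36 and 38 to 41. Without a medium well 2 to 3 medium calls were made. Without a replicate, the high against low comparison had 21 to 22 higher and 24 to 25 lower calls, the pathway 174 to 187 and 139 to 150, and the interaction 6 to 8. Of 77 called pairs, medium included, 43 were called with the same sign under every alternative run, 34 lost the call under at least 1, and 1 reversed. The cause of these shifts was not tested. With 1 rat per batch and 2 batches, the spread between animals is known poorly. Slc7a11, at a mean of 9.47 counts, is limited by depth.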

Other observations

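Profiles over 60 means of a condition and batch (log2 of CPM + 1) were compared by Pearson's r as a description, since the points share libraries, batches and chemicals. Among the members, Txnrd1 and the WT column with the Srxn1 probe were the most alike (r = 0.68), followed by Nqo1 with Gclc (0.50) and Nqo1 with Txnrd1 (0.50). The least alike were Hmox1 and Osgin1 (-0.62), and the subunit genes Gclc and Gclm reached 0.42. Over all tested genes, the profile most like Nqo1 was that of Polr3b (0.80), for Gclc it was Calm2 (0.85), for Txnrd1 Rammet (0.88), for Gsr Nob1 (0.82) and for Osgin1 Tcea3 (0.86). For Hmox1 it was Rpl36a (0.77), with Ftl1, the ferritin light chain, at 0.75. For Gclm, Slc22a18 and Ptgr1 were both at 0.79.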
